A study of Mus musculus with 22 samples.

Results

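The neutrophil and granule genes are 34 mouse genes, listed by symbol, that neutrophils and their bone marrow precursors use for their granules, their abundant cytosolic proteins and their surface receptors. Membership goes by gene symbol with no cutoff on a measured value, and the list was drawn up with earlier results of these data known. Where a gene had several probes, the brightest on average stood for it. Of the 34 genes, 32 had a probe, and 30 of these passed the filter on low values among the 20463 features tested, of which 14500 were named genes. Mmp8 and Stfa3 did not pass it and never exceeded a log2 intensity of 6.54 on any of 22 arrays, close to the array median of 6.55. Ly6g and BC100530 were not analysed here. The members fall into 5 roles: early granule enzymes (4 tested), late granule proteins (11 of 12 tested), cytosolic proteins (5 of 6 tested), regulators (2 tested) and receptors or other genes of mature cells (8 tested). Chi3l1 and Chi3l3 appear in the probe annotation as Chil1 and Chil3.

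RNA from the whole spleen, frozen before extraction, was measured in 22 mice on a 1-colour Illumina bead array. Every mouse overexpressed cyclin D1, and every mouse was stimulated with sheep red blood cells (SRBC), an antigen that provokes a B cell response. The labels give the groups. Tg_KO_D mice (7) carried the cyclin D1 transgene, had B cells lacking Bim, a protein that promotes cell death, and were scored by histopathology as having developed MCL. Tg_KO_nD mice (7) had the same genotype and no such disease. Tg_nD mice (8) had only the transgene and were free of disease. The stimulus was SRBC with pristane, an oil that provokes inflammation (P, 5 mice: 1 Tg_KO_D, 2 Tg_KO_nD and 2 Tg_nD), SRBC with irradiation (I, 9 mice, 3 of each group) or SRBC alone (A, 8 mice: 3 Tg_KO_D, 2 Tg_KO_nD and 3 Tg_nD). Mice are named by group, stimulus and the number of their title. For the transgene's promoter, the means of Bim deletion and the age of the mice, the entry is: not given in the sources used here. Levels are log2 intensities as the authors deposited them, normalized so that all 22 arrays share 1 distribution, and their number limits the precision. A log2 difference of 1 is a doubling. P-values measure the spread between these mice.

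Neutrophils mature in the bone marrow, and granule proteins are made in waves: promyelocytes make the enzymes of azurophil granules, and later myelocytes and metamyelocytes make the proteins of specific and gelatinase granules. The factor PU.1 acts from early myeloid stages onward, and C/EBP-epsilon is required for the late granule programme. The mouse spleen holds mature neutrophils in its red pulp and can host blood cell formation under stress, so both kinds of transcript can be present in whole spleen RNA. In such RNA, fewer cells of a type and less RNA per cell cannot be told apart.

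The proximal promoters of 2 early and 2 late granule genes are shown because C/EBP letters were found in most late and in 0 of 4 early granule promoters, a difference that was not tested. Elane and Prtn3 encode serine proteases of azurophil granules and lie close together on chromosome 10, while Ltf and Ngp encode proteins of later granules on chromosome 9. The windows are the 120 bases before the RefSeq gene start on GRCm38.p6, all on the plus strand, at chr10:79886192-79886311 for Elane, chr10:79879547-79879666 for Prtn3, chr9:111019172-111019291 for Ltf and chr9:110419688-110419807 for Ngp. Capitals mark the PU.1 core AGGAAG in Elane and Prtn3 (Ltf holds it just upstream of the window shown), and matches to the C/EBP motif TTNNGNAA, on either strand, in Ltf and Ngp.
Elane: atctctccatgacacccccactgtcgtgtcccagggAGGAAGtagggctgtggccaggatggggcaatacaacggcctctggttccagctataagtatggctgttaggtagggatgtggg
Prtn3: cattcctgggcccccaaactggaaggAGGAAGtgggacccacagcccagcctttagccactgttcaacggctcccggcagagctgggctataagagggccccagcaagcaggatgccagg
Ltf: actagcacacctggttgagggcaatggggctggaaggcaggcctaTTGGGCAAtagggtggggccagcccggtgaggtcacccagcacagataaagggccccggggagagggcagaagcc
Ngp: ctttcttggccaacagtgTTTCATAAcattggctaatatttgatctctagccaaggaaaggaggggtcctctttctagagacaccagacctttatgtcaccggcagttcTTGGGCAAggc

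Over the longer RefSeq window from 250 bases before to 50 after the gene start, 29 of the 32 genes with a probe had a promoter entry. The letters AGGAAG, on either strand, occurred in all 4 early granule genes, in 9 of 11 late granule genes and in 21 of 29 members, against 35.4% of the 32851 mouse promoters of the same length. The letters TTNNGNAA, on either strand, occurred in 0 of 4 early granule genes, in 9 of 11 late granule genes, in 5 of 6 cytosolic genes and in 17 of 29 members, against 40.7% of all promoters. Matches to the 2 motifs were counted separately, and overlap between them was allowed. These matches are descriptions of the letters and are no measure of binding.

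Expressed levels spanned nearly the whole range of the array. The cytosolic calcium-binding proteins S100a8 and S100a9, which together form calprotectin, averaged 12.68 and 11.94 over the 22 spleens. Ltf (lactoferrin, an iron-binding protein of specific granules) averaged 11.39, Camp (the cathelicidin antimicrobial peptide) 11.18 and Mpo (myeloperoxidase of azurophil granules) 11.06. Regulators and receptors gave lower signals, and Padi4, which citrullinates histones, stayed between 6.44 and 6.73, close to background. Levels of different probes on this array are not directly comparable, so these averages only show which members were well above background.

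Members varied together from mouse to mouse. Each member's level was correlated over the 22 mice with the mean of the other members, and Pearson's r ranged from 0.52 to 0.99, with a median of 0.93 and 17 of 30 members above 0.9. Without the array Tg_nD P_1 the range was 0.50 to 0.98, the median 0.95 and the number above 0.9 was 20. Over the 17 mice that received no pristane the median was again 0.93, and the range was -0.06 to 0.98. These values are descriptions, since the points share arrays and normalization. Prtn3 (r = 0.99), Elane (0.98) and Lcn2 (0.98), which encodes the siderophore-binding protein lipocalin 2, followed the others most closely. The chemokine receptor gene Cxcr2 (0.56), the cytokine gene Il1b (0.55) and Padi4 (0.52) followed least, and Il1b had an r of -0.06 over the 17 mice without pristane. Among genes outside the list, Hdc (the histamine-forming enzyme), Ifitm6, Pygl (glycogen phosphorylase), Mrgpra2b and Chil4 had the values most like the members' mean, with r of 0.96, 0.96, 0.96, 0.95 and 0.95 over the 22 mice. Chil4 is a close relative of Chi3l3, as Stfa1, Stfa2 and Stfa3 are of each other, and signal shared between their probes is uncertain.

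**Figure D1:**
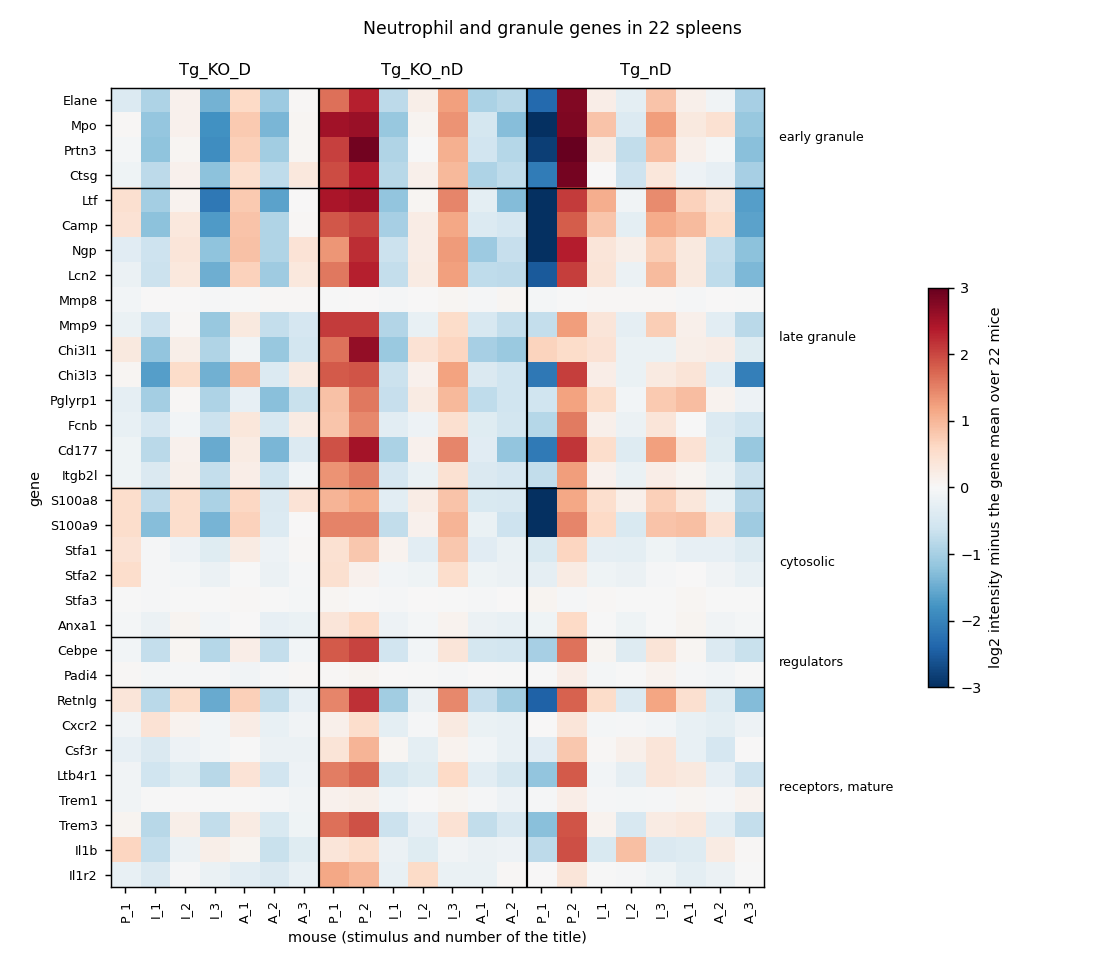
Heat map of 32 neutrophil and granule genes (rows, by role) in 22 spleens (columns, by group, then P, I and A). Colour is each log2 intensity less that gene's mean, and the colour scale ends at 3 in each direction; mice Tg_KO_nD P_1, Tg_KO_nD P_2 and Tg_nD P_2 are high across most rows, and Tg_nD P_1 is low.

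The array labelled Tg_nD P_1 stood apart from the others, and the results that rest on it are given with and without it. Of the 30 members tested, 21 had their lowest value of all 22 mice there. Shares of all features were not counted for this array, so the member counts alone do not show how unusual the members were. S100a8 was 8.91 on that array against at least 11.73 on the others, S100a9 was 7.95 against at least 10.54, and Camp was 6.64 against at least 9.49. Ngp, Prtn3 and Ctsg lay between 6.51 and 6.54 there, at background. Red cell genes were also low: the globin gene Hba-a1 was 9.65 against at least 14.04 on the others, and Alas2, the heme synthesis enzyme of red cell precursors, was 6.54 against at least 10.08. The platelet gene Pf4 was 6.74 against at least 7.83, and Spic, which marks splenic red pulp macrophages, was 8.02 against at least 8.49. Adgre1, another gene of the monocyte and macrophage list, was also lowest there, at 6.96 against at least 7.54. Vcam1 and Csf1r of that list lay within the range of the other arrays, at 11.34 (lowest of the others 10.96) and 8.21 (8.01). The monocyte and macrophage score, at -0.19, lay within that range as well. Lymphoid genes were not low, with 12.53 for Cd79b (median of the others 12.64) and 11.19 for Cd3d (median of the others 10.17). Only 3 of 30 members lay above the median of the other arrays there, among them Chi3l1 at 8.84. Of the other neutrophil genes, Fpr2 at 8.38 (lowest of the others 8.81) and Ms4a3 at 6.46 (6.79) had their lowest values of the 22 mice there. Not low were Hp at 9.12 (median of the others 8.66), Lrg1 at 9.83 (9.22), Gfi1 at 7.79 (7.65) and Cebpb at 9.75 (9.68). The score of that list, -0.14, was not the lowest of the 22. The label gives whole spleen for this array as for the others. Its red cell, platelet and most granule gene values are unlike those of the other 21 spleens. Whether the label is right was not tested, and every pristane value that includes this array carries that uncertainty. The part of its makeup in the results was not tested.

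The mean of the 30 members, each taken relative to its own mean over the 22 mice, gave a score per mouse on the log2 scale. Score values were highest in 3 pristane-treated mice without disease: Tg_KO_nD P_2 at 1.61, Tg_nD P_2 at 1.505 and Tg_KO_nD P_1 at 1.28. Diseased pristane mouse Tg_KO_D P_1 had 0.05, and Tg_nD P_1 had -1.61, the lowest of all. The 17 irradiated and SRBC-only mice lay between -0.91 and 0.73. The 5 pristane mice thus included the 3 highest scores and the lowest.

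The mean score of the early granule genes spread more widely over the mice than that of the late ones, from -2.88 to 2.91 against -1.92 to 2.08, although Ltf, a late gene, spread about as widely as Mpo. Mpo had 11.10 in Tg_KO_D P_1, 13.57 and 13.66 in Tg_KO_nD P_1 and P_2, and 6.77 and 13.86 in Tg_nD P_1 and P_2. Irradiated mice had 9.24, 11.14 and 12.42 for Mpo (lowest, median and highest of 9), and mice given SRBC alone had 9.69, 10.83 and 11.85 (of 8). The 3 high pristane mice exceeded every irradiated and SRBC-only mouse. Prtn3, which encodes proteinase 3, had 9.29 in Tg_KO_D P_1, 11.40 and 12.26 in Tg_KO_nD P_1 and P_2, and 6.54 and 12.58 in Tg_nD P_1 and P_2. Irradiated mice had 7.505, 9.35 and 10.43 for Prtn3 and SRBC-only mice 8.10, 9.04 and 10.08. For both genes, Tg_KO_D P_1 lay within the range of the mice without pristane and Tg_nD P_1 below it.

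In the late granule genes Ltf and Camp the same 3 pristane mice were high, with Tg_nD P_2 the lowest of them. Ltf had 11.87 in Tg_KO_D P_1, 13.84 and 13.94 in Tg_KO_nD P_1 and P_2, and 7.04 and 13.49 in Tg_nD P_1 and P_2. Irradiated mice had 9.24, 11.46 and 12.86 for Ltf, and SRBC-only mice had 9.74, 11.25 and 12.18. Again the 3 high pristane mice lay above all others. Camp had 11.60 in Tg_KO_D P_1, 13.05 and 13.21 in Tg_KO_nD P_1 and P_2, and 6.64 and 12.98 in Tg_nD P_1 and P_2. Irradiated mice had 9.49, 11.39 and 12.34 for Camp, and SRBC-only mice had 9.57, 10.99 and 12.12. The gap between the lowest of the 3 and the highest mouse without pristane was smaller than for Prtn3.

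Among the cytosolic genes, S100a8 varied less between mice than Ltf did, with an SD of 0.65 among the 9 irradiated mice against 1.25. S100a8 had 13.20 in Tg_KO_D P_1, 13.71 and 13.86 in Tg_KO_nD P_1 and P_2, and 8.91 and 13.83 in Tg_nD P_1 and P_2. Irradiated mice had 11.73, 12.90 and 13.54 for S100a8, and SRBC-only mice had 11.81, 12.37 and 13.30. The 3 high values lay close together, within the upper end of an array whose highest intensity was 14.397. S100a9 had 12.47 in Tg_KO_D P_1, 13.44 and 13.42 in Tg_KO_nD P_1 and P_2, and 7.95 and 13.41 in Tg_nD P_1 and P_2. Irradiated mice had 10.54, 12.08 and 12.97 for S100a9, and SRBC-only mice had 10.87, 11.85 and 12.84. Stfa1, Stfa2 (stefins, which inhibit cysteine proteases) and Anxa1 (annexin A1) stayed low, with no value above 7.73, and rank differences among them rest on weak signals.

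Among the regulators, Cebpe, which encodes C/EBP-epsilon, had 7.38 in Tg_KO_D P_1, 9.32 and 9.51 in Tg_KO_nD P_1 and P_2, and 6.47 and 9.09 in Tg_nD P_1 and P_2. Irradiated mice had 6.62, 7.38 and 7.86 for Cebpe, and SRBC-only mice had 6.77, 7.001 and 7.66. No mouse without pristane came within 1 log2 unit of the 3 high ones. Padi4 had 6.56 in Tg_KO_D P_1, 6.58 and 6.61 in Tg_KO_nD P_1 and P_2, and 6.52 and 6.73 in Tg_nD P_1 and P_2. Irradiated mice had 6.48, 6.51 and 6.65 for Padi4 and SRBC-only mice 6.44, 6.52 and 6.57, a range at background in which the stimuli overlapped.

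Of the genes of mature cells, Retnlg (a resistin-like protein of neutrophils) had 9.53 in Tg_KO_D P_1, 10.64 and 11.37 in Tg_KO_nD P_1 and P_2, and 6.75 and 10.94 in Tg_nD P_1 and P_2. Irradiated mice had 7.66, 8.98 and 10.62 for Retnlg, and SRBC-only mice had 7.86, 8.63 and 9.89. The highest irradiated mouse, Tg_KO_nD I_3, nearly reached the lowest of the 3 high pristane mice. Trem3, an activating receptor of mouse myeloid cells, had 8.27 in Tg_KO_D P_1, 9.86 and 10.10 in Tg_KO_nD P_1 and P_2, and 6.94 and 10.08 in Tg_nD P_1 and P_2. Irradiated mice had 7.36, 7.96 and 8.64 for Trem3, and SRBC-only mice had 7.47, 7.81 and 8.52. Trem3 thus kept a wider gap than Retnlg.

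For 22 of 30 members (73.3%), each of the 3 pristane mice Tg_KO_nD P_1, Tg_KO_nD P_2 and Tg_nD P_2 lay above each of the 17 mice without pristane, against 3.26% of all 20463 features (668). The 8 exceptions were Chi3l1, Pglyrp1, Stfa1, Stfa2, Padi4, Cxcr2, Il1b and Il1r2. This count describes mice picked out after their values were seen and has no test.

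**Figure D2:**
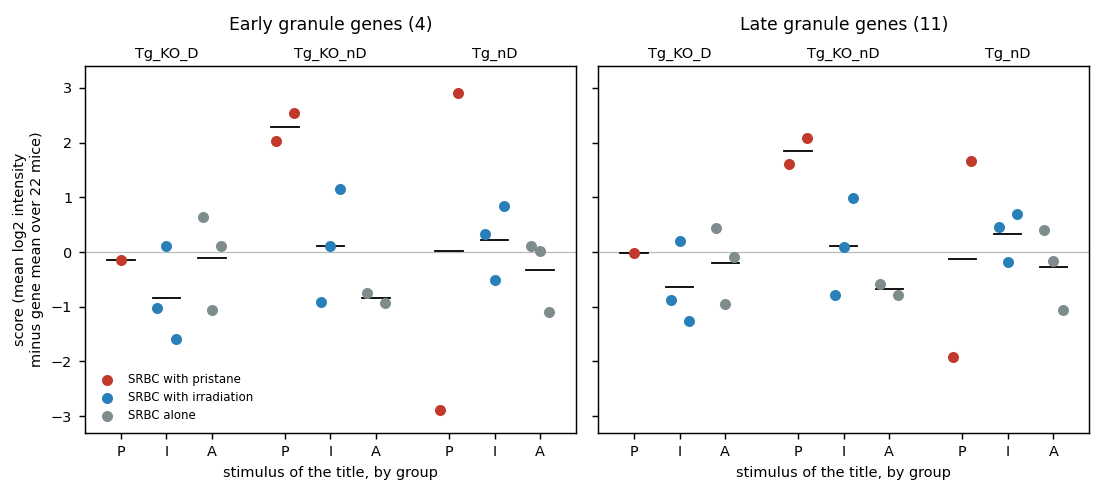
Scores of the 4 early granule genes (left) and 11 late granule genes (right), as log2 intensity less each gene's mean, averaged over genes (y axis), by group and stimulus (x axis). Points are mice and bars are means; Tg_KO_nD P_1, Tg_KO_nD P_2 and Tg_nD P_2 lie at 2.04, 2.55 and 2.91 on the left and at 1.62, 2.08 and 1.67 on the right, and Tg_nD P_1 lies at -2.88 and -1.92.

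With all 22 mice, and with the groups held apart in the fit, 0 of 30 members passed limma (adjusted p under 0.05) for pristane against SRBC alone, beside 0.0147% of all features. An unadjusted p under 0.05 was found for 15 members and for 15.4% of all features. All 30 differences were above 0, with a median of 0.83, against a median of 7.1e-05 over all features. The smallest adjusted p was 0.111, for Chi3l1. Tg_nD P_1 was singled out after its values were seen, low values of these members among them. Leaving it out raises the pristane mean of members low there, so the fit without it is no independent test. Without the array Tg_nD P_1, 22 of 30 members rose, with a median difference of 1.52, and 3.96% of all features rose. All 4 early granule genes rose, as did 8 of 11 late granule genes, 3 of 5 cytosolic genes, 1 of 2 regulators and 6 of 8 receptors and mature-cell genes. Early granule genes had a median difference of 2.19, late granule genes of 1.66 and receptors of 0.89.

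The 2 largest differences without Tg_nD P_1 were those of azurophil enzymes. Prtn3 rose by 2.32 ± 0.57 (SE, 4.99-fold, limma adjusted p = 0.0246), against 1.28 ± 0.78 with all 22 mice (0.445). Mpo rose by 2.30 ± 0.60 (4.91-fold, 0.0316), against 0.93 ± 0.94 with all mice (0.678). Ctsg, which encodes cathepsin G, rose by 2.09 ± 0.49 (0.0192) and Elane, which encodes neutrophil elastase, by 1.94 ± 0.52 (0.0350). Among late granule genes Ltf rose by 2.22 ± 0.64 (0.0452), Cd177, a surface protein that binds proteinase 3 in human neutrophils, by 2.05 ± 0.52 (0.0267) and Itgb2l, an integrin beta chain, by 1.25 ± 0.27 (0.0137). Camp, at 1.62 ± 0.55 (0.0811), Ngp, at 1.75 ± 0.53 (0.0546), and Chi3l3, at 1.66 ± 0.56 (0.0806), did not pass.

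Cebpe rose by 1.64 ± 0.32 (3.11-fold, adjusted p = 0.00962) and Trem3 by 1.65 ± 0.32 (3.13-fold, 0.0103). Ltb4r1, the leukotriene B4 receptor, rose by 1.42 ± 0.31 (0.0143), Il1b by 1.09 ± 0.26 (0.0224), Retnlg by 1.84 ± 0.53 (0.0461) and Csf3r, the receptor for granulocyte colony-stimulating factor, by 0.64 ± 0.17 (0.0316). S100a8 and S100a9, the brightest members, had differences of 1.10 ± 0.34 (0.0613) and 1.25 ± 0.46 (0.1001) and did not pass. Cxcr2, at 0.38 ± 0.13 (0.0814), Trem1, at 0.13 ± 0.05 (0.130), and Padi4, at 0.11 ± 0.03 (0.0530), did not pass either. Leaving out the diseased pristane mouse Tg_KO_D P_1 instead gave 3 members that rose, Il1r2, Cxcr2 and Anxa1, beside 0.782% of all features.

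Pristane against irradiation gave a like split. With all 22 mice 0 of 30 members passed limma while 0.279% of all features did, and the median difference was 0.61. An unadjusted p under 0.05 was found for 12 members and 17.3% of all features. Without Tg_nD P_1, 15 members rose, with a median of 1.36, and 5.17% of all features rose. Early granule genes accounted for 3 of the 15, late granule genes for 4, cytosolic genes for 3, regulators for 1 and receptors and mature-cell genes for 4. Prtn3 rose by 2.25 ± 0.56 (adjusted p = 0.0202) and Cebpe by 1.51 ± 0.31 (0.00798), while Elane, at 1.65 ± 0.51 (0.0514), and Ltf, at 1.90 ± 0.62 (0.0662), did not pass. With Tg_KO_D P_1 left out instead, 1 member rose, Il1r2, beside 1.11% of all features. Both pristane comparisons share the pristane mice, and in both Tg_nD P_1 was singled out from the same values.

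**Figure D3:**
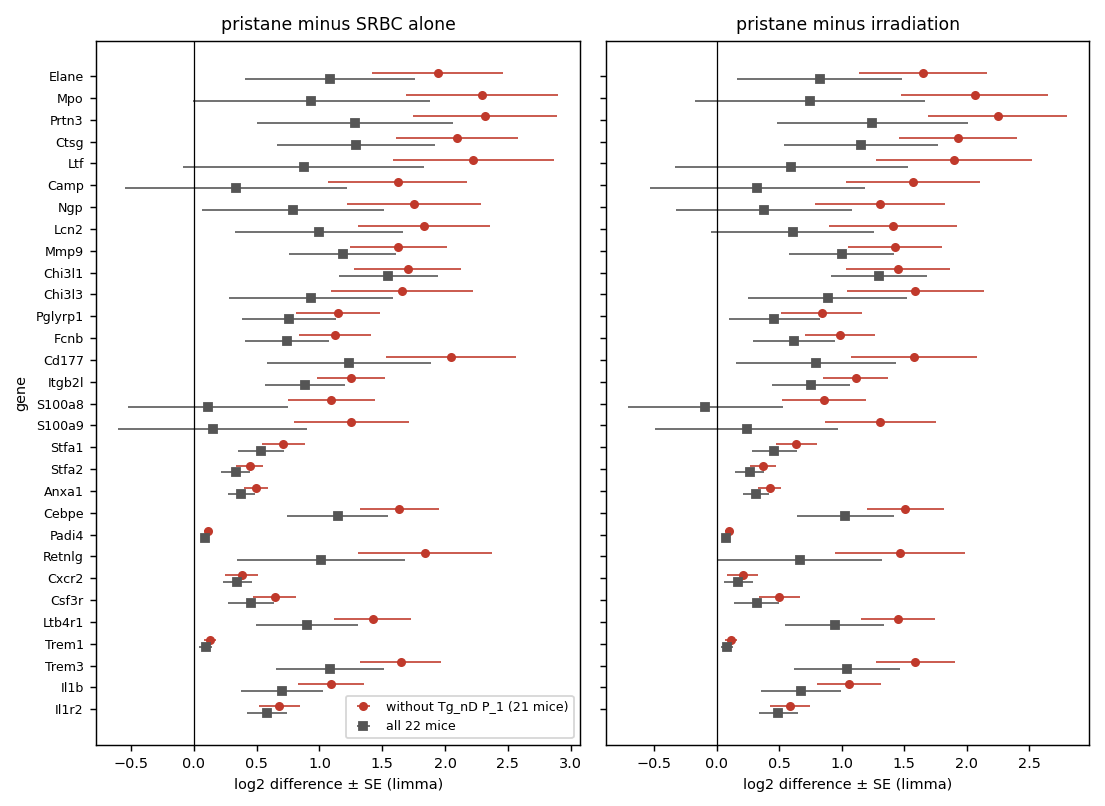
Log2 differences ± SE (limma, x axis) of 30 members (y axis) for pristane minus SRBC alone (left) and pristane minus irradiation (right), without Tg_nD P_1 (red circles, 21 mice) and with all 22 mice (grey squares). Without that array the early granule genes lie between 1.94 and 2.32 on the left.

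Restricting the fit to mice without disease and leaving out Tg_nD P_1, an alternative chosen after seeing the data, set 3 pristane mice against 5 mice with SRBC alone. These were the 3 mice with the highest member scores, so high values were built into the choice and the fit is no independent test. In that fit 29 of 30 members rose, with a median difference of 2.04, and 9.45% of all features rose. The exception was Stfa2, at 0.39 ± 0.14 (limma adjusted p = 0.0858). Among those that rose, Padi4 (0.13) and Trem1 (0.19) had signals close to background. Prtn3 rose by 3.33 ± 0.50 (adjusted p = 0.000774), Mpo by 3.22 ± 0.56 (0.00195) and Cebpe by 2.28 ± 0.24 (0.000123). Against the irradiated mice of the same groups, 20 of 30 members rose, with a median of 1.61, and 7.83% of all features rose.

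The early score less the late score was highest in the same 3 mice. Early scores spread more widely over the mice than late ones, so this difference is not a trait separate from the score of all members. The early score exceeded the late score by 0.42 in Tg_KO_nD P_1, 0.47 in Tg_KO_nD P_2 and 1.24 in Tg_nD P_2. The difference was -0.13 in Tg_KO_D P_1 and -0.97 in Tg_nD P_1, where several early genes had reached background. In the 17 mice without pristane it ranged from -0.34 to 0.20. No test was made of this difference, since the mice were singled out from the same values.

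Markers of other cells moved in the same mice. Scores of the erythroid list (10 genes tested) were 0.90, 0.99 and 1.35 in Tg_KO_nD P_1, Tg_KO_nD P_2 and Tg_nD P_2, and -1.93 to 1.08 in the 17 mice without pristane. Megakaryocyte scores (6 genes) were 1.07, 1.30 and 2.01 in these 3 mice and -0.81 to 0.97 in the 17 without pristane. B cell scores (7 genes) were -1.02, -0.37 and -1.33 in the 3 and -0.31 to 0.58 in the 17. T cell scores (7 genes) were -0.23, -0.67 and -1.53 in the 3 and -1.39 to 1.07 in the 17. Scores of eosinophil, basophil and mast cell genes (9 genes) were 0.32, 0.42 and 0.47 in the 3 and -0.48 to 0.26 in the 17. The 3 mice lay outside the range of the 17 for the megakaryocyte, B cell and eosinophil, basophil and mast cell lists, and overlapped it for the erythroid and T cell lists. Their part in the differences of the neutrophil genes was not tested.

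By gene, for pristane against SRBC alone without Tg_nD P_1, 16 of 39 other neutrophil genes rose and 0 fell, beside the 3.96% of all features that rose. The chemoattractant receptor gene Fpr2 rose by 1.85 ± 0.32 (limma adjusted p = 0.00547), the glycoprotein gene Lrg1 by 1.40 ± 0.25 (0.00625), Hdc by 1.87 ± 0.37 (0.0102) and the haptoglobin gene Hp by 1.89 ± 0.37 (0.0104). Of 6 megakaryocyte genes 4 rose, among them Itga2b (1.45 ± 0.37, 0.0287) and Gp9 (1.15 ± 0.30, 0.0308), which encode platelet surface proteins. Of 9 genes of eosinophils, basophils and mast cells 4 rose, among them the basophil protease gene Prss34 (1.31 ± 0.30, 0.0177) and Fcer1a, a chain of the IgE receptor (0.59 ± 0.12, 0.0106). Of 10 erythroid genes 1 rose, Gata1 (0.86 ± 0.22, 0.0300), and of 6 stem and progenitor genes 1 rose, Gata2 (0.54 ± 0.13, 0.0244), which is also in the basophil and mast cell list. Of 7 B cell genes 5 fell, beside 2.97% of all features that fell, among them Cd79b (-1.04 ± 0.26, 0.0241) and Blk (-1.24 ± 0.27, 0.0143), and of 7 T cell genes 1 fell, Cd8b1 (-1.65 ± 0.45, 0.0371).

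Of 12 monocyte and macrophage genes 0 passed limma in that fit (3 with an unadjusted p under 0.05, against 23.3% of all features), and the median difference was 0.12. Of 10 genes for neutrophil attractants and growth factors 0 passed (1 with an unadjusted p under 0.05), and the median was 0.02. Pristane against irradiation gave 1 of 10, Ppbp (1.44 ± 0.37, limma adjusted p = 0.0230), a platelet chemokine that is also in the megakaryocyte list. With all 22 mice, 0 genes of these 9 lists passed for pristane against SRBC alone, beside 0.0147% of all features. Of the 39 other neutrophil genes 16 had an unadjusted p under 0.05 there, beside 15.4% of all features.

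**Figure D4:**
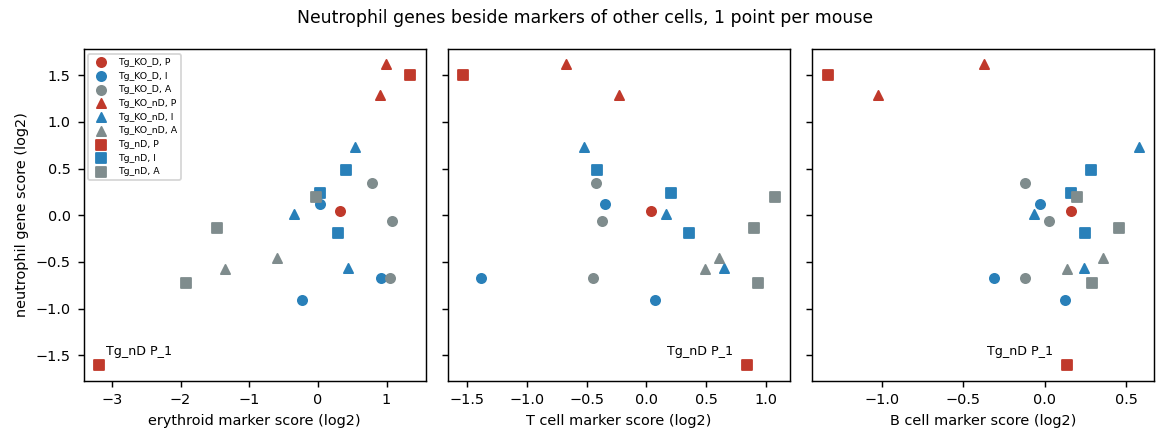
Mean score of the 30 neutrophil and granule genes (y axis, log2) against the erythroid, T cell and B cell marker scores (x axes, log2), 1 point per mouse, with shape for group and colour for stimulus. Mice Tg_KO_nD P_1, Tg_KO_nD P_2 and Tg_nD P_2 sit at the top, with erythroid scores of 0.90 to 1.35 and B cell scores of -1.33 to -0.37, and Tg_nD P_1 sits at the bottom with an erythroid score of -3.19.

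Whether the pristane difference depended on Bim could be asked only in the groups without disease, with 2 pristane mice each. The difference for pristane against SRBC alone was larger in Tg_KO_nD than in Tg_nD mice by a median of 1.88, and 0 of 30 members passed limma for it (5 with an unadjusted p under 0.05), beside 0.0% of all features, or 5.38% unadjusted. Without Tg_nD P_1 the median was 0.09 and 0 members passed. Without Tg_nD P_2 the median was 3.11 and 14 members passed, beside 0.992% of all features, with Tg_nD P_1 as the sole pristane mouse of its group, assumed to vary like the others. The value therefore turned on which of the 2 Tg_nD pristane mice was kept.

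Differences between irradiation on top of SRBC and SRBC alone lay within the spread between mice. Mean scores of the members with irradiation and with SRBC alone were 0.06 and -0.52 in Tg_KO_nD mice. They were 0.18 and -0.22 in Tg_nD mice, and -0.49 and -0.13, the other direction, in Tg_KO_D mice. With all 22 mice 0 of 30 members passed limma (0 with an unadjusted p under 0.05), beside 0.0% of all features, or 4.68% unadjusted, and the median difference was 0.12. Mpo had 9.24, 11.14 and 12.42 in irradiated mice and 9.69, 10.83 and 11.85 in SRBC-only mice (lowest, median and highest), and the ranges overlapped almost wholly. Without Tg_nD P_1 the median was 0.14 and again 0 passed (0 with an unadjusted p under 0.05). Cd177 had the largest difference with all mice, 0.44 ± 0.55 (limma adjusted p = 0.998). In mice without disease, with Tg_nD P_1 left out, the median was 0.43, 5 members had an unadjusted p under 0.05 and 0 passed limma, beside 9.43% and 0.0977% of all features.

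Most members had lower mean values in diseased than in non-diseased Bim-deleted spleens, by less than the spread between mice. For Tg_KO_D against Tg_KO_nD, 0 of 30 members passed limma (2 with an unadjusted p under 0.05) while 1.83% of all features did (14.7% unadjusted), and 29 of 30 differences were below 0, with a median of -0.57 against -0.00 over all features. Mpo had 9.24, 11.10 and 11.85 in Tg_KO_D mice and 9.78, 11.14 and 13.66 in Tg_KO_nD mice (lowest, median and highest of 7 each). Ltf had 9.24, 11.41 and 12.18 in Tg_KO_D mice and 10.08, 11.46 and 13.94 in Tg_KO_nD mice. Medians of the groups lay within 0.1 of each other for both genes, and the tops of the ranges differed. This did not hold for every member. Medians in Tg_KO_D and Tg_KO_nD mice were 8.55 and 9.16 for Elane and 8.85 and 9.76 for Pglyrp1, but 13.09 and 12.90 for S100a8.

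For Mpo and Ltf, the tops of the Tg_KO_nD ranges were pristane mice, and those of the Tg_KO_D ranges were the SRBC-only mouse A_1. The difference was -0.99 ± 0.86 for Mpo (limma adjusted p = 0.656), -1.02 ± 0.86 for Ltf (0.651) and -0.30 ± 0.56 for S100a8 (0.868). Without the 5 pristane mice the median over the 30 members was -0.08 and 0 passed (1 with an unadjusted p under 0.05), beside 3.94% of all features (19.6% unadjusted). The smallest adjusted p with all mice was 0.134, for Il1r2, the decoy receptor for interleukin 1, whose values were 6.72, 6.92 and 7.11 in Tg_KO_D mice and 6.91, 7.18 and 8.30 in Tg_KO_nD mice. Its difference was -0.57 ± 0.19, and 2 pristane mice, at 8.30 and 8.13, made up the top of the non-diseased range. With each mouse's Xist level added to the fit, Il1r2 fell by 0.75 ± 0.18 (adjusted p = 0.0484), beside 0.44% of all features that fell.

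Within a stimulus the disease difference had different signs. Under pristane, with 1 diseased and 2 non-diseased mice, 28 of 30 members were lower in the diseased mouse, with a median of -1.55. Under irradiation, with 3 mice each, 29 of 30 were lower in diseased mice, with a median of -0.56. Under SRBC alone, with 3 and 2 mice, 26 of 30 were higher in diseased mice, with a median of 0.39. Shares of all features were not counted within a stimulus, and members varied together, so the 30 signs are not separate results. The 2 non-diseased pristane mice were among the 3 mice with the highest scores. Elane differed by -2.41 under pristane, -0.95 under irradiation and 0.74 under SRBC alone. The difference under SRBC alone minus that under irradiation had a median of 0.87, and 0 of 30 members passed limma for it (0 with an unadjusted p under 0.05), beside 0.0% of all features, or 4.7% unadjusted. For Elane it was 1.69 ± 1.42 (adjusted p = 0.987), so the change of sign lay within the spread between mice.

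**Figure D5:**
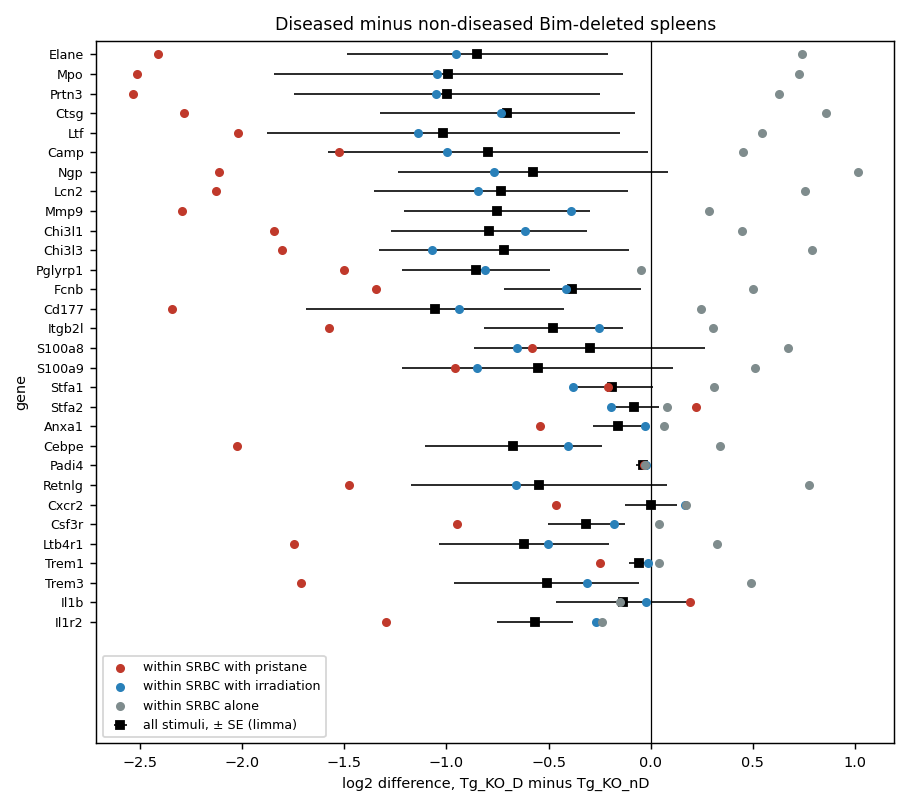
Log2 difference, Tg_KO_D minus Tg_KO_nD (x axis), of 30 members (y axis) over all stimuli with SE (black squares, limma) and as differences of means within SRBC with pristane (red), with irradiation (blue) and alone (grey). The medians over members are -1.55, -0.56 and 0.39 within the stimuli and -0.57 over all.

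Against the transgene alone, diseased spleens had a median member difference of -0.20. For Tg_KO_D against Tg_nD, 0 of 30 members passed limma (1 with an unadjusted p under 0.05) while 5.22% of all features did (20.2% unadjusted). That member was Pglyrp1, a peptidoglycan-binding protein of specific granules, with 8.27, 8.85 and 9.57 in Tg_KO_D mice and 8.92, 9.86 and 10.73 in Tg_nD mice (lowest, median and highest), a difference of -0.97 ± 0.35 (limma adjusted p = 0.117). Without the 5 pristane mice Pglyrp1 fell by 1.04 ± 0.31 (0.0388), beside 7.97% of all features that fell, and the other 29 members did not pass. Without Tg_nD P_1 the median over the members was -0.43 and 0 passed limma (1 with an unadjusted p under 0.05), beside 4.42% of all features (19.0% unadjusted).

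Among the other lists, Selplg, the selectin ligand of leukocytes, fell by 0.58 ± 0.12 (limma adjusted p = 0.00644) and Plac8 rose by 0.88 ± 0.21 (0.0171) in Tg_KO_D against Tg_nD mice, 2 of the 39 other neutrophil genes, beside 2.98% of all features that fell and 2.24% that rose. In the same comparison Prg2, which encodes eosinophil major basic protein, fell by 1.14 ± 0.33 (0.0494), Bcl11b, a T cell factor, by 1.06 ± 0.30 (0.0411), Cr2, a complement receptor of B cells, by 0.49 ± 0.12 (0.0218) and the progenitor receptor gene Kit by 0.34 ± 0.09 (0.0374). Without Tg_nD P_1, Selplg (0.0120), Plac8 (0.0275), Cr2 (0.0255) and Kit (0.0222) still passed, Prg2 (0.0649) and Bcl11b (0.0721) did not, and Tlr2 (0.0488) and the progenitor gene Meis1 (0.0156) passed as well. In Tg_KO_D against Tg_KO_nD mice 0 of the 39 other neutrophil genes passed limma (10 with an unadjusted p under 0.05), beside 1.83% of all features (14.7% unadjusted). Without Tg_nD P_1, Tlr2 rose by 0.32 ± 0.08 (0.0467), beside 1.05% of all features. With all mice, the macrophage scavenger receptor gene Marco rose by 0.78 ± 0.18 (0.0297) in Tg_KO_D against Tg_KO_nD mice. It was 1 of 12 monocyte and macrophage genes, beside 1.16% of all features that rose.

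Bim deletion without disease left the list within the spread between mice. For Tg_KO_nD against Tg_nD, 0 of 30 members passed limma (0 with an unadjusted p under 0.05), beside 0.0% of all features, or 3.32% unadjusted. The median difference was 0.35 with all mice, 0.09 without Tg_nD P_1 and -0.13 without the 5 pristane mice. S100a8 had 12.19, 12.90 and 13.86 in Tg_KO_nD mice and 8.91, 12.94 and 13.83 in Tg_nD mice (lowest, median and highest), and the ranges overlapped but for Tg_nD P_1. The 3 group comparisons share mice pairwise.

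Where a gene had more than 1 probe, the other probes mostly gave the same picture or no signal. The 13 such members had 21 other probes, of which 8 followed the chosen probe over the 22 mice with an r above 0.9. Another 4 had an r below 0.5, and all 4 of these never exceeded a log2 intensity of 7.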

How the data were processed

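The deposited values are log2 intensities, 1 column per mouse, already normalized by the authors; the unit and the quantile normalization were read from the values, since all 22 arrays hold the same sorted values to within 0.0014. For the background correction and software: not given in the sources used here. A table of unnormalized intensities was not used: its 44 columns of per-sample values have names that match no mouse. Of 45281 probes, 34885 had 1 gene, 18 several and 10378 none in the platform annotation, and listed symbols it lacked were matched through RefSeq synonyms. Kept were the 30013 probes that exceeded their array's 40th percentile on 7 or more of the 22 arrays, then 1 per gene, the brightest on average.

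Limma 3.58.1 in R 4.3.3 (lmFit, eBayes) fitted a mean per group for the 3 group comparisons, group plus stimulus for the stimuli and 9 group-by-stimulus means for the 2 interactions. P-values are two-sided, adjusted by Benjamini-Hochberg over all 20463 features, with a threshold of 0.05. The fits were tested on simulated data. The design text counts 7 transgene-only mice and the titles 8, all used. Title numbers were not taken to pair mice: same-numbered mice deviated together with correlations from -0.35 to 0.66, above 0.1 in 5 of 20 pairs. The highest, 0.66, 0.44 and 0.43, and the lowest, -0.35, were all between Tg_KO_nD and Tg_nD mice. Arrays correlated at 0.919 to 0.992, and no pair was identical.

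Values are given for the 2 members of each role with the highest mean intensity, in each pristane mouse and as lowest, median and highest of the other stimuli. Genes outside the list were named where they passed the threshold, up to 4 per list and comparison, or as the 5 most like the members' mean, and the markers of the array that stood apart and other members were named outside this rule. The members and all lists were chosen with earlier results of these data known. Alternatives covered the filter, the probe choice, eBayes settings, array weights, covariates, blocks and leaving out mice.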

Additional observations from a re-analysis of the deposited data

Results flagged for a closer look

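Within each group of 7 or 8 mice, the highest and lowest value of each member was set against Dixon's critical value for its group size. Of 90 checks 8 singled out a mouse, where chance alone gives about 4.5, or about 1 in 20. Members varied together from mouse to mouse, so the checks were not independent and 1 mouse could be flagged several times. The array Tg_nD P_1 was far below its group for S100a8, at 8.91, and for S100a9, at 7.95. Mouse Tg_nD P_2 was far above its group for Itgb2l (8.5), Stfa1 (7.57), Anxa1 (7.39), Cxcr2 (7.43) and Il1r2 (7.51). The diseased pristane mouse Tg_KO_D P_1 was far above its group for Stfa2, at 7.27. All 8 involve pristane mice, and the values of Stfa1, Stfa2, Anxa1, Cxcr2 and Il1r2 lie within about 1 log2 unit of background.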

How the results depend on the processing

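Over the alternatives run for each comparison, counts of members past the limma threshold stayed at 0 for Tg_KO_nD against Tg_nD, irradiation against SRBC alone and the disease difference under SRBC alone against irradiation. Diseased against non-diseased Bim-deleted mice gave 1 with the Xist level as a covariate (Il1r2). Diseased against transgene-only mice gave 1 (Pglyrp1) without the pristane mice, and again 1 when stimulus was then added as a covariate, which was chosen after seeing the data. Leaving out 1 mouse at a time gave 0 to 22 for pristane against SRBC alone, with medians of 0.47 to 1.52, and 0 to 15 for pristane against irradiation, with medians of 0.33 to 1.36. For the pristane difference in Tg_KO_nD less that in Tg_nD it gave 0 to 14, with medians of 0.0883 to 3.11. Restricted to mice without disease, without Tg_nD P_1, pristane gave 29 (median 2.04) against SRBC alone and 20 (median 1.61) against irradiation. That restriction kept only the pristane mice with the highest scores, so these counts are no independent test. The median for Tg_KO_nD against Tg_nD, 0.35, was not called and was -0.15 without the pristane mice and with stimulus as a covariate. With the title number as a replicate block, the 3 group comparisons gave 0 members each, with medians of -0.29, 0.29 and -0.03. Pairing of mice by these numbers was not shown. Over all single members and alternatives, 107 values newly passed, most of them in settings without Tg_nD P_1 and 14 without Tg_nD P_2. Since 0 members passed in any of the 8 comparisons as reported, no call could be lost. The cause of the new calls was not tested. Signal over background limits Padi4, Trem1, Stfa1, Stfa2, Anxa1 and Cxcr2.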

Other observations

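Among the 17 mice without pristane, the score of the 30 members was highest in Tg_KO_nD I_3, at 0.73, and lowest in Tg_KO_D I_3, at -0.91, so that irradiated Bim-deleted mice spanned the whole range. Irradiated Tg_nD mice had scores of 0.24, -0.19 and 0.48. Tg_nD mice given SRBC alone had 0.20, -0.14 and -0.73.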
